A study of Mus musculus with 13 samples.

Results

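A small molecule known to inhibit the binding between the transcription factor RUNX1 and its partner CBFB, called the RUNX1 inhibitor here and given under its code name in the plots, was added to cultured astrocytes, and the authors' deposited table for it holds 397 genes. The members described here are all rows of that table, out of about 13561 genes whose p-values entered the authors' adjustment and of 1592 gene symbols in the 3 compound tables of the study together. They were chosen by the authors, who kept genes with an adjusted p under 0.05 and a change of about 1.5-fold or more. The labels describe 3 samples with the RUNX1 inhibitor and 4 with vehicle, all of primary astrocytes taken from the retinas and optic nerves of C57BL/6 pups, wild type and aged postnatal day 1 to 3. The cells grew in medium with fetal serum and were treated for 24 h, at doses that the labels do not give. Groups of 3 samples each received HLM006474, an inhibitor of E2F transcription factors, or SB431542, an inhibitor of the kinase of the TGF-beta type I receptors, in the same medium and for the same time. Whether the samples of a group came from separate litters or platings is not stated, so every p-value measures the spread among these cultures alone, and that spread may be technical.

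RUNX proteins bind DNA as a pair with CBFB and are best known as regulators of blood cell formation and of bone. Astrocytes of the optic nerve and retina wrap axons and vessels, and in culture with serum they divide and build actin fibres. The contractile genes of smooth muscle are driven largely by serum response factor and its MRTF cofactors, and genes of DNA replication and mitosis by E2F, MYB and FOXM1 factors.

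With the RUNX1 inhibitor, 82 genes rose and 315 fell in the authors' deposited table, so that 79.3% of the listed genes were lower. These are 2.93% of the genes tested, 0.605% higher and 2.32% lower, and these shares are the background for every count below. The lower genes included 66 of the 272 genes of 7 cell cycle lists and 19 of the 107 genes of 5 contractile and cytoskeletal lists, against 0 and 1 that rose. The higher genes included 7 of 30 immediate early transcription factors and 9 of 90 motile cilium genes. The cilium list was drawn up after the values were seen, so its count is no test of that family. The largest rise belonged to Alpl, the tissue-nonspecific alkaline phosphatase, and the gene with the lowest adjusted p was Cnn2, a calponin of actin fibres, which fell.

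Fold changes are given as the log2 fold change of the RUNX1 inhibitor over vehicle ± the authors' standard error, and the percentages of the vehicle level with 95% intervals were computed from these. Adjusted p-values are those of the authors' DESeq2 Wald test. The mean normalised count is the authors' mean over libraries of all groups; it shows how deeply a gene was measured, and because it depends on gene length it is not compared between genes. Values per sample were not analysed here, so neither the overlap of the groups nor the depth of the libraries is known. In bulk RNA, fewer cells of a type and less RNA per cell cannot be told apart.

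The smallest change in the authors' deposited table was 1.495-fold and the largest adjusted p was 0.0482. Just inside the fold limit stood Kif9, Scara5, Mdk, Cdadc1 and Gm4724, each at about 150% of the vehicle level, and on the lower side Tbc1d1, Bub1b, Mcm8, Stbd1 and Rlbp1, each at about 67% (66.8% to 66.9%). From the ranks of the p-values, at least 2790 genes, 20.6% of those tested, passed the adjusted p alone, of which 2393 are outside the table and its fold limit. The table therefore holds 14.2% of the genes that passed. Of the 50 genes with the lowest p-values, 30 are in the table, 3 of them higher and 27 lower. Absence from the table is no sign that a gene did not change.

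The size of the listed changes moved with the mean count. A gene with a larger standard error needs a larger change to pass the adjusted p, so this relation is set in part by that threshold. The 119 genes with a mean count under 100 had a median absolute log2 change of 0.96 and a median standard error of 0.30, and 50 of them changed by 2-fold or more. The 57 genes with a mean count over 1000 had a median absolute log2 change of 0.67 and a median standard error of 0.078, and 7 changed by 2-fold or more. Those 7, 3 higher and 4 lower, were Alpl, Arrdc3 and Nr4a1 on one side and Acta2, Tagln, Tpm2 and Myl9 on the other.

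**Figure D1:**
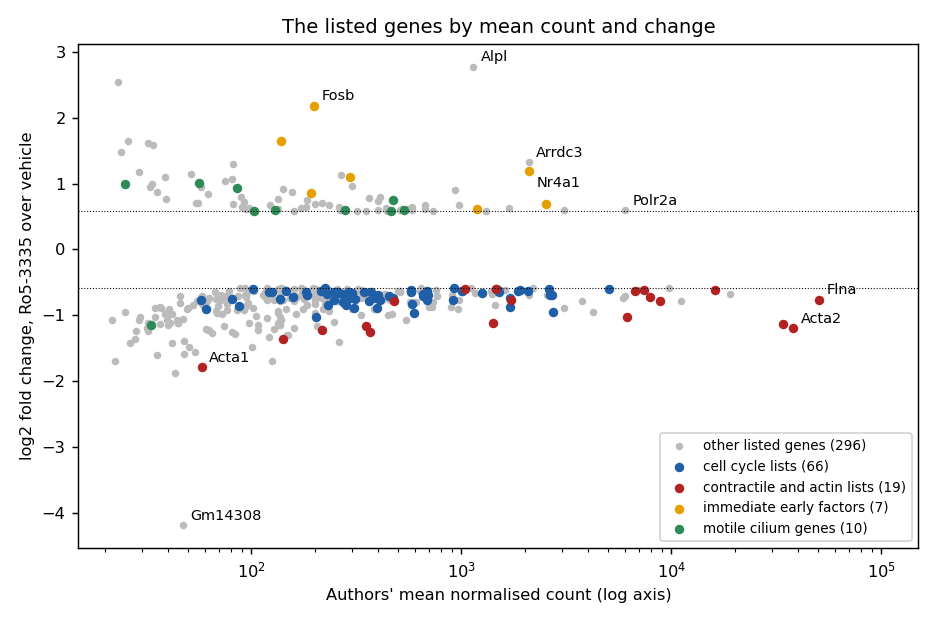
Each point is 1 of the 397 genes of the authors' deposited table, placed by the authors' mean normalised count (horizontal, log axis) and by the log2 fold change of the RUNX1 inhibitor over vehicle (vertical); dotted lines mark 1.5-fold. Cell cycle genes (66, blue) sit together just below the lower line at middle counts, contractile genes (19, red) reach the highest counts with Flna at 50368, and Alpl and Fosb stand apart at the top.

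The direct target was looked for first. Runx1, Runx2, Runx3 and Cbfb are not in the table, nor is any other of the 9 genes listed as the RUNX family and its cofactors. The compound acts on the protein, so the mRNA of its target does not check the labels. Of 24 genes known as RUNX1 or RUNX2 targets from blood and bone, 3 are listed (12.5%, against the 2.93% background), 1 higher and 2 lower. They are Alpl, which starts mineralisation in bone, Spp1, the secreted matrix protein osteopontin, and Myl9, the regulatory light chain of smooth muscle myosin. Spp1 fell in the authors' deposited table by 0.74 ± 0.071 on the log2 scale, to 60.1% of the vehicle level (54.5% to 66.2%). Alpl rose by 2.78 ± 0.40, to 685% (400% to 1174%), from a gene at chr4:137741731-137796384 of GRCm38. Its standard error was larger than that of all 62 listed genes with a mean count close to its own, where the median was 0.0967 and the largest 0.223.

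The RUNX core sequence TGTGGT, searched on both strands in the RefSeq promoters of GRCm38.p6 from 250 bases before to 50 after each start, was counted next. It occurred in 6 of 61 higher genes with a promoter in the reference (9.84%) and in 33 of 239 lower genes (13.8%), against 18.9% of 27025 genes. The median GC content of these windows was 60.3% for higher and 59.3% for lower genes, against 52.8% for all genes. A match in a window is a description of letters, not a binding site, and a missing match says only that these letters are not in that window. Among the listed RUNX target genes, Spp1 alone had a match before the start, and its window with 1 such match is printed. Here and in the other promoter windows, capitals mark the motif or its reverse complement. All windows are read in the direction of the gene and end before the transcript start that the reference's promoter table uses. For Cdc6, Top2a, Mki67, Fosb, Egr2 and Nr4a3 the window lies partly or wholly within the annotated span of the gene, which begins further upstream.

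Spp1 (chr5:104434956-104435015, plus strand): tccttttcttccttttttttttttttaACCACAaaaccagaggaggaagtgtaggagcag

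Among the genes that fell, Cnn2, Tpm4, Acta2 and Tagln had the lowest adjusted p, followed by Myl9 and Tubb6 with equal values. All of these but Tubb6, a beta-tubulin, are contractile. In the authors' deposited table, 10 of 23 smooth muscle type contractile genes were lower and 0 higher (43.5%, against 2.32% of all tested genes). Their median log2 change was -0.91, against -0.77 over all lower genes of the table. Acta2, the smooth muscle alpha-actin at chr19:34240336-34255585, fell by 1.19 ± 0.078, to 43.7% of the vehicle level (39.3% to 48.5%), with an adjusted p of 4.54e-50. Tagln, the actin-bundling protein transgelin, fell by 1.13 ± 0.075, to 45.8% (41.4% to 50.7%). Tpm2, a tropomyosin that lies along the actin filament, fell by 1.12 ± 0.082, to 46.1%, and Myl9 fell by 1.03 ± 0.072, to 48.9%. The change was smaller for Cnn2, at -0.79 ± 0.045 or 57.8% (54.4% to 61.5%), but its adjusted p of 8.8e-66 was the lowest in the table. Tpm4, a tropomyosin of non-muscle cells, followed with -0.62 ± 0.035 and an adjusted p of 1.13e-64.

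The other 4 listed members were Actg2, the enteric smooth muscle actin, at -1.37 ± 0.20, Smtn, the actin-binding protein smoothelin, at -0.78 ± 0.12, Cnn1, the smooth muscle calponin, at -0.72 ± 0.058, and Lmod1, which helps actin filaments to start, at -0.60 ± 0.085. Not in the table were 13 members, among them Myh11, the heavy chain of smooth muscle myosin, Des, Mylk, Cald1 and Tpm1. Myh11 and Des had mean counts of 13.6 and 21.0, both below the smallest mean count in the RUNX1 inhibitor table, 21.6.

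Genes known as targets of serum response factor and its MRTF cofactors gave the same share, 10 of 23, of which 9 fell and 1 rose. They overlap the contractile list in Acta2, Tagln, Cnn1, Cnn2, Myl9 and others. The member that rose was Egr1, an immediate early gene. Nexn, a protein of actin filaments in muscle, fell to 44.8% of the vehicle level (37.9% to 53%), and Tgfb1i1, an adaptor protein at focal adhesions also called Hic-5, fell by 0.78 ± 0.081 in the authors' deposited table.

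Of 32 actin cytoskeleton regulators, 3 were listed and all fell: Flna, the actin crosslinker filamin A, Myh10, a non-muscle myosin heavy chain, and Anln, the actin-binding protein anillin of the cleavage furrow. Flna fell by 0.76 ± 0.054 at a mean count of 50368, the largest in the authors' deposited table, and reached 58.9% of the vehicle level. Of 24 striated muscle and calcium store genes, 4 fell, namely Acta1, the skeletal muscle actin, Casq1, the calcium-binding protein of the sarcoplasmic reticulum, Jph2, which holds that store to the surface membrane, and Nexn. Casq1 fell by 1.25 ± 0.14 and Jph2 by 1.22 ± 0.16. Acta1 showed the largest change of these, -1.79 ± 0.58, at a mean count of 58.0, and its interval was wide, from 13.1% to 63.5% of the vehicle level.

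Among 13 other muscle genes, picked from the table after the values were seen, were Kcnmb1, the beta subunit of the large calcium-activated potassium channel of smooth muscle, at -1.58 ± 0.32, Mrvi1, a partner of the smooth muscle IP3 receptor, at -1.39 ± 0.41, and Dysf, the membrane repair protein dysferlin, at -0.70 ± 0.087. Kcnmb1 lies wholly within Kcnip1, which fell by 1.01 ± 0.19; whether the counting used strand is not given in the sources used here, so reads of the pair cannot be told apart. The list of 21 YAP and TEAD targets, other genes that answer to actin tension, had 1 member in the table, lower.

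Serum response factor binds the CArG box, and that motif was found on either strand in 2 of 8 listed contractile genes with a promoter (25%), in 2 of 12 that are not listed (16.7%), and in 1.81% of all genes. The matching windows of Cnn2 and Myl9 are shown because Cnn2 has the lowest adjusted p in the table and Myl9 is among the lowest. The window of Acta1, of the striated muscle list, is shown because Acta1 has the largest change among the actin genes.

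Cnn2 (chr10:79988519-79988578, plus strand): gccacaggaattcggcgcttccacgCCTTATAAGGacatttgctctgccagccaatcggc

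Myl9 (chr2:156775278-156775337, plus strand): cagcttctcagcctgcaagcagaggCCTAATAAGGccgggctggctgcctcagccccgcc

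Acta1 (chr8:123894814-123894873, minus strand): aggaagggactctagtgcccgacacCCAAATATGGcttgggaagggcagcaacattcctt

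Contractile genes are also markers of pericytes and smooth muscle cells. Of 13 markers of those cells, 2 are in the table, Acta2 and Tagln, both lower, while Rgs5, Notch3 and Anpep, with mean counts of 87.8, 1129 and 577, are not listed. The part of such cells in the contractile changes was not tested.

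**Figure D2:**
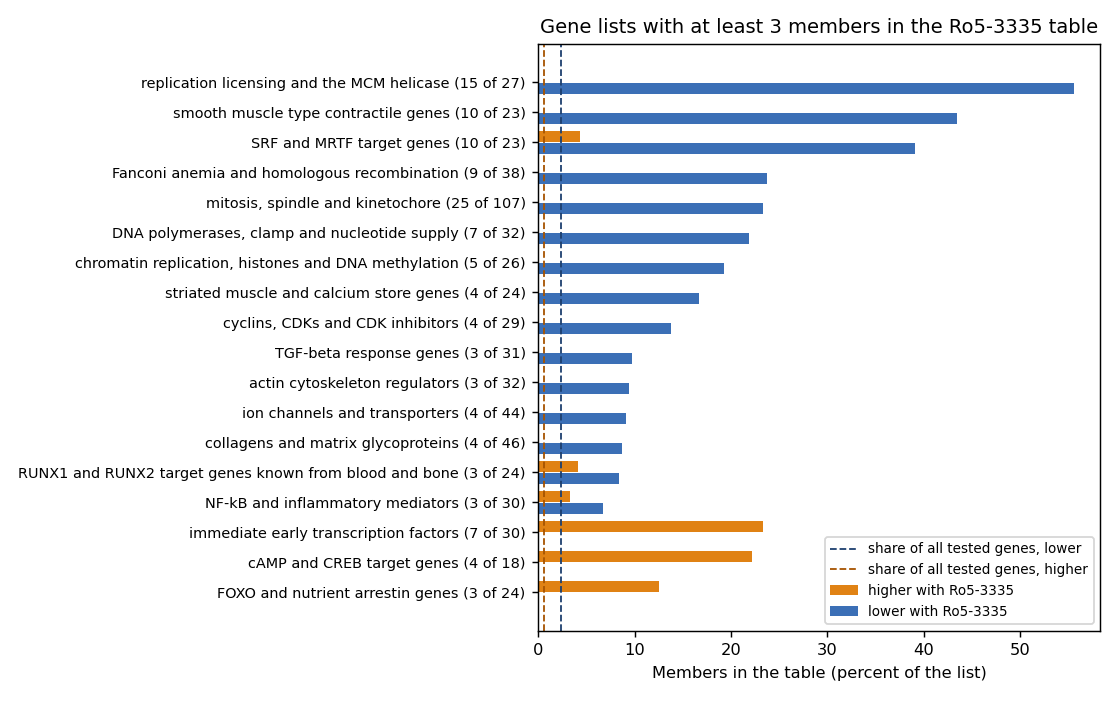
Bars give the percentage of each gene list that is in the authors' deposited table, higher (orange) or lower (blue) with the RUNX1 inhibitor, for lists with at least 3 members in it; dashed lines mark the shares of all tested genes, 0.605% higher and 2.32% lower. The replication licensing list reaches 55.6% lower, the contractile list 43.5% lower, and the 7 immediate early and 4 CREB target genes are on the higher side alone.

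Genes of DNA replication formed the list with the largest share in the table. Of 27 genes of replication licensing and the MCM helicase, 15 fell and 0 rose (55.6%, against the 2.32% background), with a median log2 change of -0.65. The listed changes ran from -0.58 for Mcm8, just inside the fold limit, to -0.90 for Dscc1, a loader of the sliding clamp. Members that changed less cannot be listed, so the narrow range is set in part by that limit. Mcm2, Mcm3, Mcm5 and Mcm6, subunits of the helicase ring, fell in the authors' deposited table by 0.63 ± 0.064, 0.61 ± 0.11, 0.64 ± 0.066 and 0.69 ± 0.11. Cdt1 and Cdc6, which load that ring at origins, fell by 0.77 ± 0.11 and 0.74 ± 0.12, and Cdt1 reached 58.7% of the vehicle level. Gmnn, the inhibitor of Cdt1, fell as well, by 0.65 ± 0.11, and so did Mcm10, Orc1, Cdc45, Gins2, Ticrr and Timeless.

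Enzymes that supply and copy DNA were counted next. Of 32 genes for DNA polymerases, the clamp and nucleotide supply, 7 were lower and 0 higher. Rrm2, the regulated subunit of ribonucleotide reductase, fell by 0.95 ± 0.077 in the authors' deposited table, to 51.7% of the vehicle level (46.6% to 57.4%). Tk1, thymidine kinase, fell to 51.1% (43.8% to 59.7%). Tyms, Dut, Ung, Pole2 and Rfc5 were the others, between 55.9% and 65.0%. Of 26 genes that copy chromatin and DNA methylation, 5 fell, among them Uhrf1 and its partner Dnmt1, the maintenance methyltransferase, at -0.87 ± 0.080 and -0.59 ± 0.066. Of 38 genes of the Fanconi anemia pathway and homologous recombination, 9 fell, including Fancd2, the pathway's central ubiquitinated protein, at -0.85 ± 0.17.

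E2F proteins bind TTTCCCGC and TTTGGCGC. The letters TTTGGCGC were found on either strand in 5 of 12 listed licensing genes with a promoter (41.7%), in 0 of 8 that are not listed, and in 0.585% of all genes. TTTCCCGC was found in 2 of the 12 (16.7%), in 2 of the 8 (25%) and in 1.24% of all genes. Among all lower genes with a promoter the shares were 3.35% for TTTGGCGC and 5.02% for TTTCCCGC. Windows of Mcm5, Mcm6 and Cdc6 show the motif in both orientations.

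Mcm5 (chr8:75109334-75109393, plus strand): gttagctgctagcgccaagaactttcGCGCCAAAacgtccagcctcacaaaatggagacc

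Mcm6 (chr1:128359719-128359778, minus strand): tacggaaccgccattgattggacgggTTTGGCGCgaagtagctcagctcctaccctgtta

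Cdc6 (chr11:98907987-98908046, plus strand): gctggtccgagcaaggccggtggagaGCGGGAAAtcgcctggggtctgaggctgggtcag

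Of the 13 members of the E2F and RB family, 1 is in the authors' deposited table: E2f8, an E2F protein that represses, which fell by 0.89 ± 0.13. Of 29 cyclins, CDKs and CDK inhibitors, 4 fell, namely Ccna2, the cyclin of S phase and G2, at -0.73 ± 0.056, Ccne2, an S phase cyclin, at -0.74 ± 0.16, Cdk1, the kinase of mitotic entry, at -0.62 ± 0.098, and Pkmyt1, a kinase that holds Cdk1 inactive, at -0.72 ± 0.18. Cdkn1a and Ccnd1, members of that list, are not in the table.

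Of 107 genes of mitosis, the spindle and the kinetochore, 25 fell and 0 rose (23.4%), with a median log2 change of -0.68. Cenpn, a reader of the centromeric nucleosome, showed the largest change in the authors' deposited table, -1.03 ± 0.13 or 48.9% of the vehicle level (40.7% to 58.7%). Top2a, the topoisomerase that untangles chromosomes, fell by 0.60 ± 0.046 and Mki67, the proliferation marker of the chromosome surface, by 0.69 ± 0.092. Plk1 and Aurkb, kinases of mitosis, fell by 0.77 ± 0.12 and 0.68 ± 0.11, and Ube2c, which passes ubiquitin to mitotic cyclins, by 0.77 ± 0.098. Of the transcription factors of this programme, Mybl2 fell by 0.89 ± 0.16 and Foxm1 by 0.63 ± 0.12. All 66 listed cell cycle genes lay between -1.03 and -0.58, where the end at -0.58 is set by the fold limit. Of these genes, 1 changed by 2-fold or more. A further 16 genes of replication and repair picked from the table, such as Neil3, a DNA glycosylase, Rad18, which marks the clamp at stalled forks, and Traip, a ubiquitin ligase of the replisome, were all lower, by 0.77 ± 0.16, 0.66 ± 0.14 and 0.97 ± 0.25.

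The CHR sequence TTTGAA, through which mitotic genes are silenced in resting cells, was found on either strand in 11 of 19 listed mitosis genes with a promoter (57.9%), in 39 of 65 that are not listed and in 20.2% of all genes. Cdca5, which protects sister chromatid cohesion, and Mki67 hold it more than once in the windows printed, and Top2a and Ube2c in the other orientation.

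Cdca5 (chr19:6085037-6085096, plus strand): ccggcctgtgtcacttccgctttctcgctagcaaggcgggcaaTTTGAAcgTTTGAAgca

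Mki67 (chr7:135716445-135716504, minus strand): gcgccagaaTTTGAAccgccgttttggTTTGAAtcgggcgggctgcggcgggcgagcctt

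Top2a (chr11:99024190-99024249, minus strand): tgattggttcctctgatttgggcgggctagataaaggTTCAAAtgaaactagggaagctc

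Ube2c (chr2:164769869-164769928, plus strand): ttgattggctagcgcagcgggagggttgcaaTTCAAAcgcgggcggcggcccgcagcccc

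**Figure D3:**
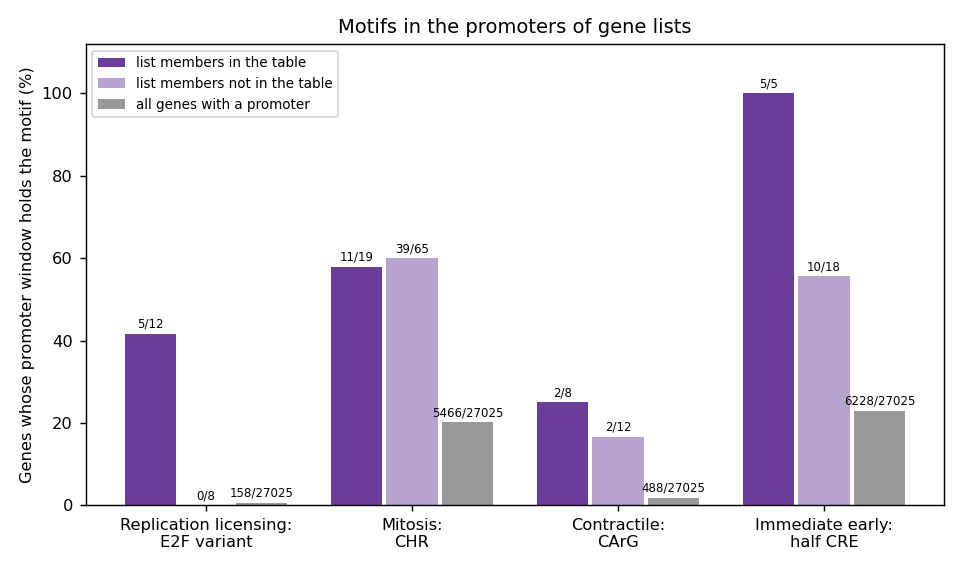
Bars give the percentage of genes whose promoter window of 300 bases holds the named motif, for members of 4 lists that are in the authors' deposited table, for members that are not, and for all genes; counts stand above the bars. The E2F variant TTTGGCGC stands in 5 of 12 listed licensing genes and in 0 of 8 others, and CHR in 11 of 19 listed mitosis genes and 39 of 65 others.

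On the higher side, the immediate early transcription factors stood out by number. These genes are switched on within minutes by growth factors, calcium or cAMP, and 7 of 30 rose while 0 fell (23.3%, against 0.605% of all tested genes), with a median log2 change of 1.10. Fosb, a partner of JUN in the AP-1 factor, rose by 2.19 ± 0.27 in the authors' deposited table, to 456% of the vehicle level (317% to 656%). Of the NR4A nuclear receptors, Nr4a1 rose by 1.20 ± 0.20, Nr4a2 by 1.64 ± 0.54 and Nr4a3 by 0.69 ± 0.095. The error of Nr4a2 was the largest of the 7, and its adjusted p was 0.0148. The zinc finger factors Egr1, Egr2 and Egr3 rose by 0.62 ± 0.096, 1.10 ± 0.19 and 0.86 ± 0.18. Fos, Fosl1, Jun, Junb, Atf3 and Ier2, members of the same list, are not in the table.

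Of 18 targets of cAMP and the factor CREB, 4 rose and 0 fell, which are Fosb and the 3 Nr4a genes again. CREB binds the cAMP response element TGACGTCA and also its shorter core TGACG, which lies within the full element. The core was found on either strand in all 5 of the 5 listed immediate early genes with a promoter. It was found in 10 of 18 that are not listed (55.6%) and in 6228 of 27025 genes in all. The full element was found in 0 of the 5, in 2 of the 18 (11.1%) and in 2.03% of all genes. The CArG box was found in 1 of the 5 (20%), Egr2, in 1 of the 18 (5.56%) and in 1.81% of all genes. The Egr2 window printed below also holds a CArG match, left unmarked because capitals there mark the core alone. Median GC content was 68.3% in the 5 listed genes and 64.2% in the 18. The 5 had 1.8 promoter windows per gene on average, against 1.28 for the 18 and 1.22 for all genes. A match in any window counted, so more sequence was searched for the 5.

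Fosb (chr7:19310074-19310133, minus strand): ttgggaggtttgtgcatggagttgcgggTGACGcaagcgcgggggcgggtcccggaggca

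Egr2 (chr10:67537786-67537845, plus strand): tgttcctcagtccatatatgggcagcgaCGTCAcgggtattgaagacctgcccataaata

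Nr4a3 (chr4:48045130-48045189, plus strand): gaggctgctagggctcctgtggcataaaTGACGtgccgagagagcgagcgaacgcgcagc

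Of 19 genes that feed back on MAP kinase and growth factor signals, 1 is in the table, and it fell: Etv4, an ETS factor induced by FGF signals, at -0.81 ± 0.16. The Dusp, Spry and Spred genes of that list are not in it. Fgf1, a growth factor without a secretion signal, fell by 0.90 ± 0.12 in the authors' deposited table.

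The gene with the lowest adjusted p among those that rose was Arrdc3, an alpha-arrestin that draws membrane receptors into endosomes, at chr13:80883384-80896042. It rose by 1.33 ± 0.081, to 252% of the vehicle level (225% to 281%), with an adjusted p of 2.08e-57 in the authors' deposited table. Of 24 genes of FOXO factors and nutrient-controlled arrestins, 3 rose and 0 fell (12.5%): Arrdc3, its relative Arrdc2 at 0.80 ± 0.25, and Fbxo32, the ubiquitin ligase atrogin-1 of muscle wasting, at 0.59 ± 0.086. Polr2a, which encodes the catalytic subunit of RNA polymerase II, rose by 0.60 ± 0.049, the 1 listed gene of 35 for this polymerase and its regulators. Sat1, the enzyme that acetylates polyamines for export, rose by 0.60 ± 0.055, the 1 listed gene of 12 in polyamine metabolism.

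Single members of stress lists rose. Trib3, a pseudokinase induced by ATF4, rose by 1.05 ± 0.29 and was the 1 listed gene of 32 in the integrated stress and unfolded protein responses. Gadd45a, a p53 target that responds to DNA damage, rose by 0.62 ± 0.083, the 1 listed gene of 24 p53 targets. In the opposite direction, Hspb1, a small heat shock protein that binds actin, fell by 0.98 ± 0.13, the 1 listed gene of 15 in the heat shock list. No member of the lists for NRF2 and glutathione, the aryl hydrocarbon receptor, hypoxia and glycolysis, cholesterol synthesis, the circadian clock, glucocorticoid response, interferon response or splicing is in the authors' deposited table. These lists do not hold every gene of their pathways. Outside them, the genes of the RNA-binding proteins Hnrnpdl and Rbmx fell by 0.70 ± 0.064 and 0.88 ± 0.095. Hilpda, a hypoxia-inducible gene, rose by 0.69 ± 0.25.

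Some genes of motile cilia were in the table. The list was drawn up after the values were seen, as a whole family of 90 genes, and 10 are listed, 9 higher and 1 lower, with a median log2 change of 0.61. Rsph4a, a protein of the radial spoke head, rose by 0.75 ± 0.099 in the authors' deposited table, to 168% of the vehicle level (147% to 192%). Ccno, which drives the multiplication of centrioles in multiciliated cells, rose by 1.00 ± 0.26, and Dnaaf1, an assembly factor for dynein arms, by 1.00 ± 0.37. Casc1, 1700007K13Rik, Cfap44, Kif9, Ropn1l and Ccdc146 were the other higher genes, between 150% and 191%. Kif19a, a kinesin that limits cilium length, was the exception, at -1.15 ± 0.44 and a mean count of 33.2. Kif19a overlaps its neighbour Btbd17, also lower, by 498 bases of the annotation, and Ccdc146 overlaps Fgl2, which fell, by 5714 bases. Foxj1, the factor that switches on this programme, and the Dnah heavy chains of dynein are not in the table.

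**Figure D4:**
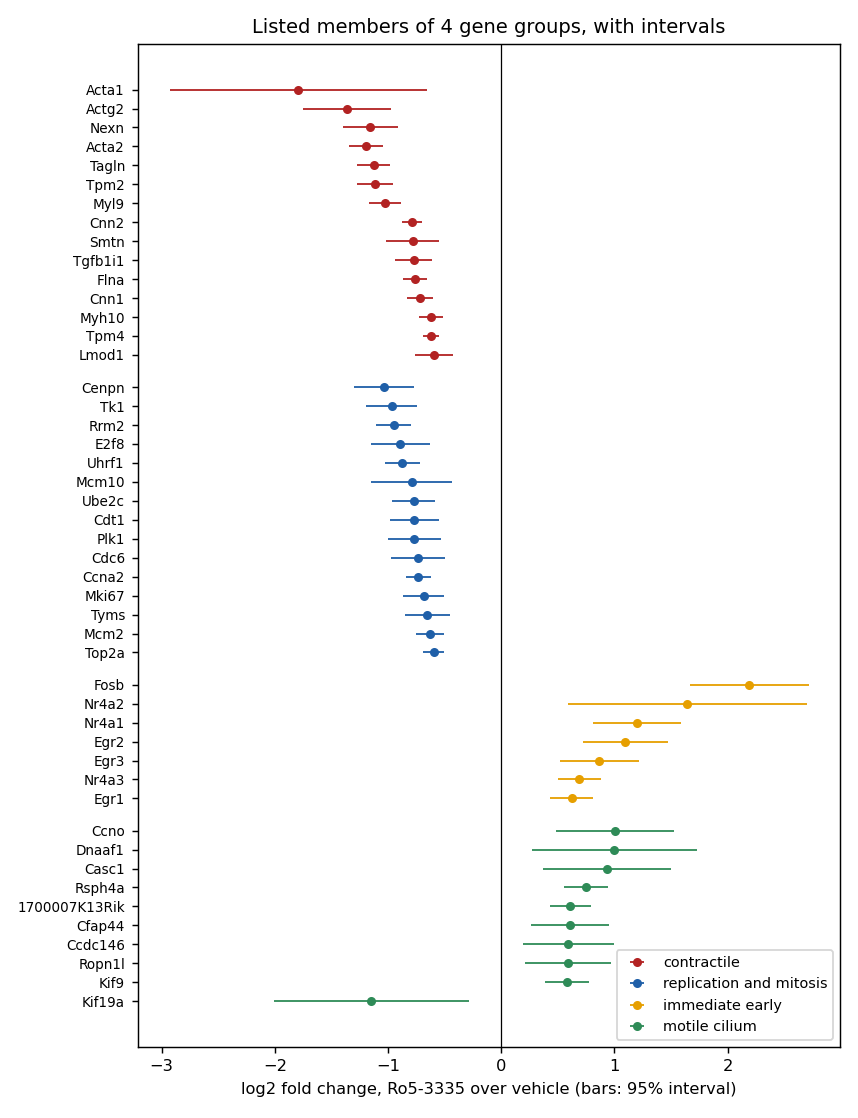
Points are log2 fold changes of the RUNX1 inhibitor over vehicle for members of 4 gene groups, with 95% intervals from the authors' standard errors. The contractile genes and the replication and mitosis genes shown are a selection of those listed. Contractile genes (red) spread from -1.79 to -0.60. The replication and mitosis genes shown (blue) lie between -1.03 and -0.60, and all 66 listed cell cycle genes between -1.03 and -0.58. Immediate early genes (orange) rise to 2.19, and cilium genes (green) lie near 0.6 to 1.0 with Kif19a on the other side.

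Matrix genes in the table were nearly all lower. Of 46 collagens and matrix glycoproteins, 4 fell (8.70%, against 2.32%), namely Tnc, the injury-induced glycoprotein tenascin-C, Lama5, the alpha-5 chain of laminin, Hspg2, the basement membrane proteoglycan perlecan, and Fbn2, a fibrillin. Tnc fell by 0.79 ± 0.065 and Lama5 by 0.96 ± 0.11 in the authors' deposited table. Of 34 collagen processing enzymes and matrix proteases, Adamts14, which trims procollagen, fell by 1.16 ± 0.16 and Mmp3, stromelysin, by 0.84 ± 0.26. Of 31 TGF-beta response genes, 3 fell, namely Ltbp2, a matrix protein of the latent TGF-beta binding family, at -0.85 ± 0.079, Inhba, the activin A chain, at -0.94 ± 0.26, and Lrrc15 at -0.96 ± 0.27. Ccn2 and Smad7, members of that list, are not in the table. Itga9, an integrin that binds tenascin-C and osteopontin, fell by 0.96 ± 0.20 and was the 1 listed gene of 26 integrins and adhesion receptors.

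Among 15 further matrix genes picked from the table, 14 fell, including Vwa1, a matrix protein around vessels and nerves, at -0.88 ± 0.070, and Col11a2, a fibrillar collagen of cartilage, at -1.22 ± 0.43. Hmcn1, a large basement membrane protein, rose by 1.59 ± 0.59 at a mean count of 33.9. The 5 enzymes that build sulfated glycans, picked in the same way, were Chsy3, Chst3, Chst1, Hs6st2 and B3gnt7, and all fell.

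The 14 G protein-coupled receptors and 9 ion channel subunits in the authors' deposited table, picked after the values were seen, were all lower. For these and all other groups picked from the table, no family size can be set beside the count. Of all listed genes, 79.3% were lower. Adgrg6, an adhesion receptor needed by Schwann cells for myelination, fell by 0.90 ± 0.078. Htr2a, a serotonin receptor, Oxtr, the oxytocin receptor, and F2rl1, the receptor cleaved by trypsin, fell by 1.15 ± 0.35, 0.89 ± 0.30 and 1.22 ± 0.24. Of 44 ion channels and transporters, 4 fell (9.09%), among them Cacna1c, an L-type calcium channel, at -0.79 ± 0.19, Scn8a, a voltage-gated sodium channel, at -0.81 ± 0.27, and Ano1, a calcium-activated chloride channel, at -1.22 ± 0.34. Kcnd3, a potassium channel of the A-type current and one of the 9 subunits picked, fell by 0.67 ± 0.081.

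The label astrocyte was checked against markers. Of 22 astrocyte markers, 5 have a mean count in at least 1 of the 3 tables, from 65.3 to 23892 for Kcnj10, the potassium channel of astrocyte end feet; the rest, Gfap and Aqp4 among them, are in no table, so their levels are unknown. One astrocyte marker is in the authors' deposited table for the RUNX1 inhibitor, Fabp7, the fatty acid binding protein of radial glia and young astrocytes. It fell by 0.67 ± 0.055, to 62.9% of the vehicle level (58.3% to 67.8%). Of 38 reactive astrocyte genes, 2 fell, and Gfap, Vim and Lcn2 are not in the table. Of 13 markers of Müller glia, Rlbp1, the retinaldehyde binding protein, and Crym fell by 0.58 ± 0.18 and 0.75 ± 0.13.

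Markers of other cells were present. Of 17 markers of microglia and macrophages, 9 have a mean count in some table, from 200 for Aif1 to 24249 for Lyz2, and 0 are in the RUNX1 inhibitor table. Other leukocyte genes are in it, 18 picked after the values were seen, 4 higher and 14 lower. Gpr84, a receptor of activated macrophages, fell by 1.31 ± 0.23, and Lsp1, an actin-binding protein of leukocytes, fell by 1.00 ± 0.10. Cd300a and Cd300ld3, receptors of myeloid cells, rose by 0.68 ± 0.14 and 0.69 ± 0.17. Of 30 NF-kB and inflammatory genes, Il33, an alarmin, and Tnfaip3, the NF-kB inhibitor A20, fell by 0.75 ± 0.090 and 0.78 ± 0.23, while Tnfaip2 rose by 0.60 ± 0.19. None of 15 oligodendrocyte, 16 fibroblast or 10 pigment epithelium markers is in the table. Mean counts in some table are known for 8 of the oligodendrocyte markers, from 54.7 to 930. They are known for 4 of the fibroblast markers, from 272 to 11402.5 for Col1a1. Of 12 endothelial markers 1 is in the RUNX1 inhibitor table, the VEGF receptor Flt1, which fell by 1.12 ± 0.41. Of 10 Schwann cell markers, 4 have a mean count in some table, and 1 is in the RUNX1 inhibitor table, Prx, at -0.65 ± 0.15. What part the share of these cells has in the listed changes was not tested.

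Of 18 genes known mainly from neurons, picked after the values were seen, 16 fell and 2 rose. Grin2b, an NMDA receptor subunit, and Slit1, an axon guidance ligand, fell by 1.87 ± 0.58 and 1.61 ± 0.59 at mean counts of 43.3 and 35.6 in the authors' deposited table. Tubb3, the neuronal beta-tubulin, fell by 0.72 ± 0.095, and Elavl4, a neuronal RNA-binding protein, rose by 0.95 ± 0.37; these are the 2 listed genes of 17 neuron and photoreceptor markers. Of 7 vascular genes picked in the same way, Thbd, the thrombin receptor thrombomodulin, and Angptl4 rose, and Flt1, Ptprb, Ecscr, Cd34 and Angpt4 fell.

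Metabolic enzymes were split, with 9 higher and 9 lower among 18 picked from the table. Sat1 and Alpl were joined on the higher side by Aox3, an aldehyde oxidase, at 1.62 ± 0.41, and Vnn1, which releases pantothenate, at 0.65 ± 0.24. On the lower side stood Slc2a4, the insulin-controlled glucose transporter, at -1.15 ± 0.16, Ch25h, cholesterol 25-hydroxylase, at -1.21 ± 0.20, Pycr1, of proline synthesis, at -0.86 ± 0.28, and Mthfd1l, of the mitochondrial folate pathway, at -0.72 ± 0.11, all from the authors' deposited table.

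Other genes had large changes or low adjusted p-values, among them Camk2b and Nadk2 of the neuronal and metabolic genes picked. The most extreme value in the authors' deposited table was that of Gm14308, a zinc finger gene at chr2:176619933-176636423 among near-identical copies, at -4.19 ± 1.01 and a mean count of 47.1; how reads are shared among the copies is uncertain. Among genes with a mean count of at least 100, the largest falls were those of Pakap at -1.69 ± 0.35 and Lyrm7 at -1.48 ± 0.48. Camk2b, a calcium-dependent kinase of neurons, and Rgs8, which shortens G protein signals, fell by 1.33 ± 0.25 and 1.29 ± 0.17. Rises of that kind were those of Nadk2, the NAD kinase of mitochondria, at 1.14 ± 0.26, Abtb1 at 0.96 ± 0.20, Gm49369 at 0.91 ± 0.25 and Arid5a, an RNA-binding protein that stabilises cytokine mRNA, at 0.91 ± 0.13. Crygs, a lens crystallin, Fam214a and Nnat, an imprinted membrane protein, were higher by 0.59 ± 0.087, 0.59 ± 0.091 and 0.64 ± 0.099. On the lower side, Tubb6, a beta-tubulin, and Anxa3, a membrane-binding annexin, had among the lowest adjusted p-values, at -0.79 ± 0.055 and -0.71 ± 0.053.

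The compounds were then compared gene by gene. The RUNX1 inhibitor, HLM006474 and SB431542 share the vehicle samples, so agreement between their tables is not a result, and genes in only one table were not compared. The difference of log2 fold changes was tested with a 2-sided z test for 211 genes in the tables of both the RUNX1 inhibitor and HLM006474, and 20 of them differed (9.48%) after Benjamini-Hochberg adjustment. That test takes the errors as independent; with an error that allows for the shared vehicle samples, 34 differed. Under the RUNX1 inhibitor the change was smaller and in the same direction for 15, larger for 2 and opposite for 3.

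Replication genes were among those with smaller changes under the RUNX1 inhibitor. Mcm2 changed by -0.63 ± 0.064 with the RUNX1 inhibitor and by -1.05 ± 0.065 with HLM006474 in the authors' deposited tables, a difference of 0.42 ± 0.091 (adjusted p = 0.000239, z test). Cdc6 changed by -0.74 with the RUNX1 inhibitor and by -1.49 with HLM006474, a difference of 0.75 ± 0.18 (adjusted p = 0.000916, z test). Mcm3, Mcm5, Chaf1b, Uhrf1 and Mki67 differed in the same direction. Of the licensing genes in both tables, 4 of 13 differed, and of the mitosis genes 1 of 18; with an error that allows for the shared vehicle samples these counts were 6 and 3.

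Of 6 immediate early genes in both tables, 3 differed, and these rose less with the RUNX1 inhibitor. Egr1 rose by 0.62 ± 0.096 with the RUNX1 inhibitor and by 1.41 ± 0.095 with HLM006474 in the authors' deposited tables, a difference of -0.79 ± 0.13 (adjusted p = 8.98e-07, z test). Egr2 and Egr3 differed by -0.92 ± 0.27 and -0.81 ± 0.25. For Fosb, at 2.19 with the RUNX1 inhibitor and 3.22 with HLM006474, the difference of -1.03 ± 0.38 missed the threshold (adjusted p = 0.0621, z test), with a 95% interval from -1.77 to -0.29. Nr4a1 differed by -0.58 ± 0.28 (adjusted p = 0.247, z test) and Nr4a3 by -0.0072 ± 0.13 (adjusted p = 0.998, z test). With an error that allows for the shared vehicle samples, 5 of the 6 passed, and the adjusted p of Fosb was 0.00293 and that of Nr4a1 0.0398.

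Arrdc3 went the other way: it rose by 1.33 with the RUNX1 inhibitor and by 0.78 with HLM006474, a difference of 0.55 ± 0.11 (adjusted p = 0.000161, z test). Casq1 was the other gene with a larger change under the RUNX1 inhibitor, at -1.25 with the RUNX1 inhibitor and -0.64 with HLM006474. Clec4n, a lectin receptor of myeloid cells, changed by -1.15 with the RUNX1 inhibitor and by 0.79 with HLM006474. Of 7 smooth muscle type contractile genes in both tables, 0 passed the threshold of the adjusted z test and 2 had an unadjusted p under 0.05, and for Acta2 the difference was -0.11 ± 0.11, with a 95% interval from -0.32 to 0.11. With an error that allows for the shared vehicle samples, 1 of the 7 passed, Tagln, with an adjusted p of 0.0151 and a difference of -0.25 ± 0.11. A difference that misses the threshold does not show that the compounds acted alike.

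Between the RUNX1 inhibitor and SB431542, 16 of 93 genes in both tables differed (17.2%), with the change larger under the RUNX1 inhibitor for 4, smaller for 8 and opposite for 4. The 4 with larger changes were Acta2, Tagln, Nexn and Arrdc3. Acta2 changed by -1.19 with the RUNX1 inhibitor and by -0.64 with SB431542 in the authors' deposited tables, a difference of -0.55 ± 0.11 (adjusted p = 6.33e-06, z test). Tagln changed by -1.13 with the RUNX1 inhibitor and by -0.63 with SB431542, a difference of -0.50 ± 0.11 (adjusted p = 2.48e-05, z test). Ltbp2, Lrrc15, Stra6, Chst1 and Slco2b1 fell less with the RUNX1 inhibitor. Immediate early genes rose with SB431542 as well. Of the 5 listed for both compounds, 0 differed, also with an error that allows for the shared vehicle samples. With SB431542, Fosb rose by 1.62, Nr4a1 by 1.40, Egr3 by 1.27, Egr2 by 0.97 and Egr1 by 0.82.

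Cd300a, Cd300ld3 and Tnfaip2 rose less with the RUNX1 inhibitor than with SB431542. The opposite changes were those of Scara5, a ferritin receptor, at 0.58 with the RUNX1 inhibitor and -0.99 with SB431542, Angptl4, an inhibitor of lipoprotein lipase, at 1.15 with the RUNX1 inhibitor and -1.14 with SB431542, Clec4n at -1.15 with the RUNX1 inhibitor and 1.47 with SB431542, and the chemokine gene Ccl12 at -0.97 with the RUNX1 inhibitor and 1.495 with SB431542.

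**Figure D5:**
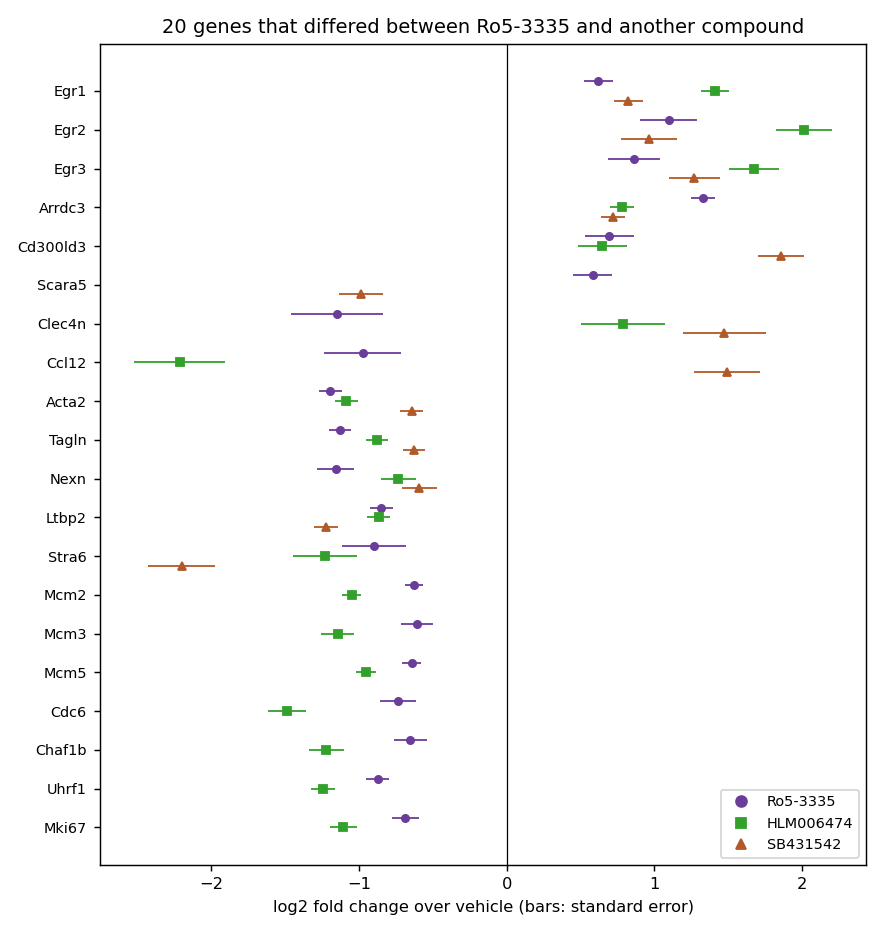
Points are log2 fold changes over vehicle from the authors' deposited tables with their standard errors, for 20 genes that differed between the RUNX1 inhibitor and at least 1 other compound; a missing point means that the gene is not in that compound's table. Acta2, Tagln and Nexn lie further left with the RUNX1 inhibitor than with SB431542, the MCM genes lie closer to 0 with the RUNX1 inhibitor than with HLM006474, and Clec4n and Ccl12 fall with the RUNX1 inhibitor while rising with SB431542.

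Neighbouring genes were counted last. Of the 397 genes, 392 matched a RefSeq location in GRCm38 and 389 of these are protein-coding. Within 100 kb of each other lie 24 adjacent pairs of listed genes, 16 with the same and 8 with opposite directions, and 4 pairs overlap. As 79.3% of all listed genes were lower, most pairs would share a direction wherever they lay. Slc16a6, a monocarboxylate transporter family gene, and Arsg, a lysosomal sulfatase, overlap by 266 bases; the authors' deposited table has them higher by 0.65 ± 0.15 and 0.65 ± 0.13.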

How the data were processed

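RNA from 13 samples was sequenced, 3 each with the RUNX1 inhibitor, HLM006474 and SB431542 and 4 with vehicle. The submitters' processing notes name CASAVA 1.8, STAR 2.7, DESeq2 1.30.1 and build GRCm38. Per the file headers, the authors' deposited tables give each gene's mean normalised count (a signal level), log2 fold change, standard error, Wald score, p-value and adjusted p-value. Mean counts are identical across the tables, so 1 fit covered all groups. The number tested was inferred as the one that made 83.6% of 171 ranks whole within 0.02; the next best made 14.0% whole. Intervals are the log2 fold change ± 1.96 standard errors. Differences between compounds used a z test with independent errors, adjusted over the genes in both tables. Tables were joined by symbol and mean count. Promoters came from RefSeq (GRCm38.p6), with 300 of the 397 genes matched. Python 3.11.15, pandas 2.3.3 and scipy 1.17.1 were used, and scripts were tested on simulated data.

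The members and lists were chosen with earlier results of these data known. Named genes are listed members of 40 gene lists and 10 marker lists, the 15 lowest adjusted p-values and 10 largest changes (mean count of at least 100) per direction, and the 5 genes nearest the fold limit per direction. Other genes were named after their values were seen. Library depth is unknown. The read counter and its annotation are not given in the sources. Some members of the lists are counted but not reported by name here.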

Additional observations from a re-analysis of the deposited data

How the results depend on the processing

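Most listed genes were lower under each alternative tried, 77.9% to 85.7%. Each alternative kept a part of the same listed genes, so it could not test the direction of genes outside the fold limit. The count of higher genes moved to 53 with a mean count of at least 100, to 19 with a change of at least 2-fold and to 11 where the whole 95% interval lay beyond 1.5-fold. The count of lower genes moved to 67 and 66 under the last 2 of these. At an adjusted p under 0.01 there were 56 higher and 259 lower genes. Cell cycle members, 66 as deposited, numbered 64, 62, 1 and 7 at an adjusted p under 0.01, a mean count of at least 100, 2-fold and the stricter interval. Contractile members, 20 as deposited, numbered 19, 19, 9 and 13, and immediate early genes, 7 as deposited, numbered 6, 7, 4 and 4. With an error that allows for the shared vehicle samples, 34 genes differed from HLM006474 and 20 from SB431542. No paired analysis was possible because the files used hold no values per sample, and leaving out each replicate was not run for the same reason. Genes with low counts carry wide errors.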
